A study of Mus musculus with 55 samples.

Results

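The interferon-stimulated genes are a set of 35 mouse genes whose transcription is switched on when interferons bind their receptors. Their level was followed in whole lung of male C57BL/6 mice that were 6 weeks old when housed, with 1 Affymetrix whole-genome mouse array per mouse. A gene was taken as measured where a probe set (a group of short probes for 1 transcript) carried its symbol and no other. That gave 33 of the 35 genes, with 53 probe sets, among 18193 genes with such a probe set. Isg15 shares its probe set with another symbol and Ifi44 had no probe set in the annotation used, so both were not analysed here. Each gene was represented by its brightest probe set, and all levels below are log2 RMA values (robust multiarray averaging, a method that gives 1 normalized log2 value per probe set).

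The 55 mice fell into 12 groups, of which 8 were exposed for 5 weeks and 4 were injected. Before treatment all mice were adapted for 2 weeks to their diet, which was either AIN-76A, a casein-based defined diet, or LRD-5001, a laboratory rodent diet. On each diet there was a control group without added sodium arsenite (As), a group with 10 ppb As in food, a group with 10 ppb As in water and a group with 100 ppb As in water. The injected mice were all on AIN-76A. They received saline, 1 mg/kg dexamethasone (Dex, a synthetic glucocorticoid), 1 mg/kg sodium arsenite, or both, into the peritoneum, 8 hr before sampling. After 3 arrays had been left out (AIN 100 ppb water replicate B, LRD 10 ppb water replicate C and arsenite injection replicate E), the groups held 3 to 5 mice.

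Type I interferons bind a receptor on nearly every cell, and its kinases activate a transcription factor complex, with STAT2 and IRF9 among its parts, that binds the interferon-stimulated response element (ISRE) in the promoters of antiviral genes. Interferon-gamma acts through another receptor and another promoter element (GAS), and raises mainly antigen-processing genes and GTPases. IRF7 is both a product of the pathway and an inducer of more interferon, and a low level of these transcripts is present in healthy lung. Glucocorticoids are known to dampen many inflammatory genes and to lower the number of circulating lymphocytes and monocytes.

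The genes were ordered by role. Signalling and transcription factors were Irf7, Irf9 and Stat2. The sensors were Ifih1, Ddx58 and Dhx58, which bind viral RNA, and Zbp1, which binds Z-form nucleic acid. Usp18 removes ISG15 from proteins. Oas1a, Oas2 and Oas3 belong to the family that makes 2-5A, the activator of RNase L, and Oasl1 and Oasl2 are OAS-like proteins. The IFIT proteins, Ifit1, Ifit2 and Ifit3, bind viral RNA or partner with those that do. The GTPases were Gbp2, Gbp3, Igtp, Iigp1, Irgm1, Mx1 and Mx2. Other effectors were Bst2 (tethers budding virions), Rsad2 (makes a chain-terminating nucleotide), Cmpk2, Ifi35, Parp14, Rtp4 and Xaf1. Tap1 carries peptides into the endoplasmic reticulum, and Psmb8 and Psmb9 are subunits of the immunoproteasome.

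The promoters of 4 genes are shown. All fell with Dex, while their diet differences were unlike. Oas1a also fell with the LRD diet and Ifit1 was at −0.37 there, whereas Gbp3 and Bst2 were at 0.04 and 0.15. Each run holds the 150 bases before the annotated start site (RefSeq, GRCm38.p6, 5′ to 3′ on the gene's strand), and capitals mark the ISRE-like letters GAAANNGAAA on either strand, where N is any base and neighbouring matches may overlap.
Oas1a, chr5:120907526-120907675, minus strand: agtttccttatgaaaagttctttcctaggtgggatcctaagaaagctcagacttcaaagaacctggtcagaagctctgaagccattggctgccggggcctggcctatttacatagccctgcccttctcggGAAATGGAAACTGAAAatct
Ifit1, chr19:34640739-34640888, plus strand: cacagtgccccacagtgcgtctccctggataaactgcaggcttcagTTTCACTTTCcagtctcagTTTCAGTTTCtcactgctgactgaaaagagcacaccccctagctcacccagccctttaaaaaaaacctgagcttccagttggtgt
Gbp3, chr3:142559894-142560043, plus strand: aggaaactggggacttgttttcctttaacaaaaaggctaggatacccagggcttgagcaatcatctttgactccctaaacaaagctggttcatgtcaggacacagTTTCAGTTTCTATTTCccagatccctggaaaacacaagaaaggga
Bst2, chr8:71537473-71537622, minus strand: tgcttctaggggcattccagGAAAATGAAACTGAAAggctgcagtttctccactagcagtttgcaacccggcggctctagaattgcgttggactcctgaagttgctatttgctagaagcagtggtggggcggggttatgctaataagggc

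Each of the 4 held 2 such matches, and they do not stand for all genes that fell with Dex. Igtp and Gbp2 also fell and held 1 each in the 250 bases before the start site. Irf7, Oasl1, Oasl2, Tap1, Psmb8 and Psmb9 also fell and held 0 there. Among genes that did not pass with Dex, Ifit3 and Irgm1 held 2 each there, and Oas3, Rsad2 and Stat2 held 1 each. Cmpk2, Ddx58, Ifi35, Ifih1, Ifit2, Irf9 and Xaf1 did not pass either and held 0. Of the 33 measured genes, 24 had a promoter in the table used, and 11 of these 24 held the ISRE-like letters in the 250 bases before the start site, against 2.98% of 32851 promoters. GAS-like letters (TTCNNNGAA) were in 5 of the 24, against 7.02%. Gbp3, Irf9 and Ifit2 had more than 1 annotated start site, and a gene was counted where any of its start sites matched. The shares are per promoter, so the units are unlike. The other start site of Gbp3 held 0 ISRE-like matches. Matches are letters in these windows and not measured binding.

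The values of the arrays used were close in scale, with medians of 4.25 to 4.37 and correlations with the rest of their group of 0.967 to 0.996. The 3 arrays left out had correlations of 0.265 to 0.954. Defining lung markers were high in every array used, with the lowest alveolar type II marker mean at 11.58. In 6 arrays used, markers of skeletal muscle or thymocytes averaged above 7.5, where the medians over mice lay between 3.34 and 4.77 in the pooled sets of mice. These were AIN control replicate E, AIN 10 ppb water replicates A and E, LRD 10 ppb food replicate B, saline injection replicate E and Dex injection replicate A, and the counts and medians over the 33 genes were recomputed without them. Fat markers also averaged above 7.5 in 9 arrays used, 4 of which are among these 6. The other 5 were LRD control replicates A and C, saline injection replicate D and Dex injection replicates B and C, and the values without all 11 arrays are given where they differ. The Dex label was read against 8 known glucocorticoid targets (Fkbp5, Zbtb16, Per1, Tsc22d3, Sgk1, Klf9, Dusp1 and Cdkn1a). They did not mark the Dex mice against saline, where 0 of 8 passed the test (limma, 0 of 8 also at an unadjusted p below 0.05), 5 of 8 differences were below 0 and the median was −0.05. Their mean was 10.12 ± 0.32 (SD, n = 5) after Dex and 10.21 ± 0.55 (n = 5) after saline. In uninjected AIN controls it was 9.65 ± 0.28 (n = 5), lower than in both of these groups. Between Dex with As (10.38 ± 0.67) and As alone (9.72 ± 0.25) all 8 differences were above 0, with a median of 0.38, 0 calls and 2 of 8 higher at an unadjusted p below 0.05.

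Averaged over the 33 genes, the lung level was lowest in the 2 groups that received Dex. The mean was 7.19 ± 0.12 (SD, n = 5) after Dex alone and 7.27 ± 0.27 (n = 5) after Dex with As, against 7.68 ± 0.26 (n = 5) after saline and 7.83 ± 0.16 (n = 4) after As alone. All 5 Dex mice (7.02 to 7.32) lay below all 5 saline mice (7.40 to 8.08), and the Dex and As mice (6.88 to 7.64) overlapped the saline mice. In whole lung, fewer cells of a type and less RNA per cell cannot be told apart. In the exposed and control groups on AIN-76A the group means lay between 7.70 and 7.80, and on LRD-5001 between 7.54 and 7.70. The mice of the 2 diets overlapped, at 7.515 to 7.981 on AIN-76A and 7.468 to 7.842 on LRD-5001.

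**Figure D1:**
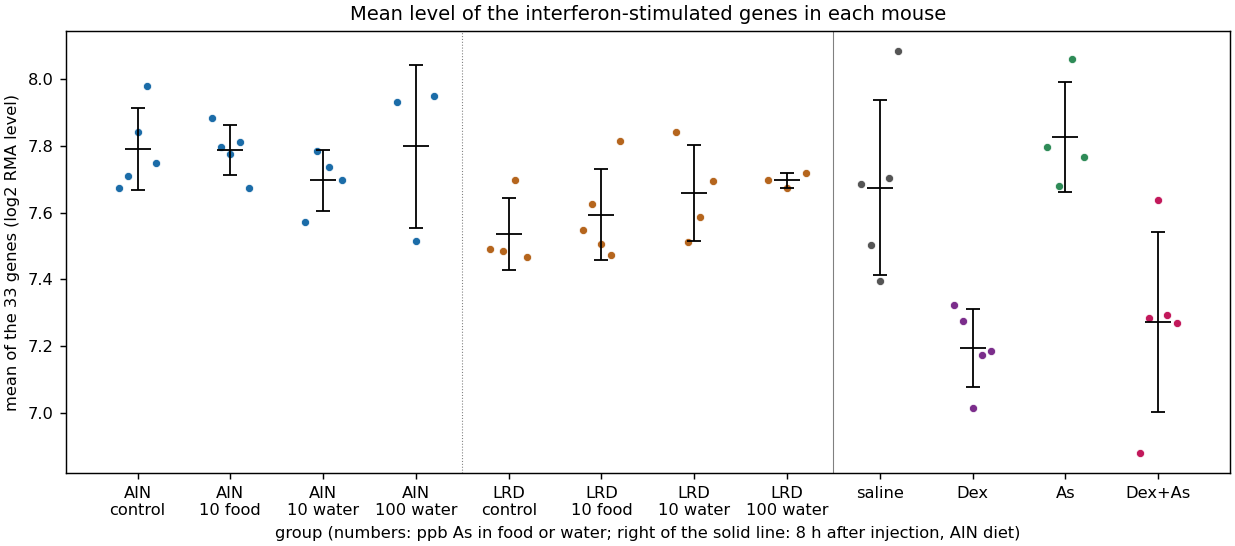
The mean log2 RMA level of the 33 interferon-stimulated genes in each mouse (points) for the 12 groups, with the group mean and SD as bars. The 5 Dex mice sit between 7.02 and 7.32, below all saline mice, and the 4 LRD group means (7.54 to 7.70) lie at or below the 4 AIN group means (7.70 to 7.80).

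The comparison of Dex with saline asked whether a glucocorticoid changed these transcripts within 8 hr. Zbp1 and Irf7 fell, and no gene rose. Zbp1 was 5.01, 5.32, 5.54, 4.64 and 4.98 in the 5 Dex mice and 6.15, 6.13, 5.66, 7.06 and 7.03 in the 5 saline mice. Every Dex mouse was below every saline mouse, and the highest Dex value was close to the lowest saline value. The difference was −1.30 ± 0.26 on the log2 scale (SE, adjusted p = 0.0301, limma), a 2.47-fold lower level.

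Irf7 was 6.65, 6.43, 6.09, 6.16 and 6.16 after Dex and 7.30, 7.11, 6.74, 6.90 and 7.53 after saline, again without overlap. Its difference was −0.82 ± 0.16 (adjusted p = 0.0290). These were 2 of 33 genes, where 0.638% of all genes were called lower. At an unadjusted p below 0.05, 18 of 33 were lower, where 7.42% of all genes were, and the median difference over the 33 genes was −0.46 against −0.01 over all genes. In 8 of the 33 genes (Irf7, Dhx58, Zbp1, Oas1a, Oasl2, Bst2, Rtp4 and Tap1) all Dex mice were below all saline mice, where 1.9% of all genes were. With 1 mouse left out at a time the number called ranged from 0 to 5, and it reached 0 without saline replicate F or Dex replicate B, E or F and 5 without saline replicate D.

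In mice that also received As, Oas1a was the gene called lower with Dex, at 6.65, 7.09, 7.56, 6.82 and 7.02 in the 5 Dex and As mice against 8.19, 7.92, 8.61 and 7.87 in the 4 As mice. The groups did not overlap, and the difference was −1.12 ± 0.21 (adjusted p = 0.0188), a 2.18-fold lower level. That was 1 of 33 genes, where 0.5% of all genes were called lower, and it was lost without arsenite replicate C or Dex and As replicate E. All 33 differences were below 0, with a median of −0.58, and 23 of 33 were lower at an unadjusted p below 0.05, where 7.65% of all genes were. Against saline, Dex with As gave 0 calls (0.528% of all genes were called lower, limma) and 16 genes lower at an unadjusted p below 0.05 (6.72% of all genes), and the Zbp1 difference was −1.11 ± 0.26 (adjusted p = 0.0572). These comparisons share their control or Dex mice and are not independent.

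The Dex difference was then averaged over mice without and with As (10 Dex mice against 9 without Dex), a contrast added after the separate ones had been seen. It gave 16 of 33 genes lower and 0 higher, where 3.35% of all genes were called lower, and 26 of 33 lower at an unadjusted p below 0.05, where 10.0% of all genes were. The median over the 33 genes was −0.58, against −0.01 over all genes, and the exception in sign was Mx2 at 0.05. No gene had all 10 Dex mice below all 9 others (0 of 33, where 0.319% of all genes did).

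Of the 5 genes of the 2-5A synthetase family 4 fell: Oas1a by 0.98 ± 0.15 (SE, adjusted p = 7.3e-04, 1.98-fold), Oas2 by 0.89, Oasl2 by 0.79 and Oasl1 by 0.46. Oas3 was at −0.98 ± 0.30 without passing the test (adjusted p = 0.0848), with a wide spread in saline mice (SD 0.95). It averaged 4.54 over the arrays used, so all its differences given here are those of a dim signal. Oas1a ran from 6.65 to 7.56 in the 10 Dex mice, with a median of 6.93, and from 7.51 to 8.61 in the 9 others, with a median of 7.87, so that the ranges overlapped only at their ends. Averaged over the 5 genes of the family, all 10 Dex mice (5.60 to 6.13) lay below all 9 others (6.17 to 7.43). The gap was narrow, and the means of all other roles overlapped between these mice. How often other gene sets of this size separate was not tested.

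All 3 antigen-processing genes fell: Tap1 by 0.67, Psmb9 by 0.64 and Psmb8 by 0.58. Tap1 was 7.00, 6.77, 6.72, 6.80 and 6.76 after Dex and 7.83, 7.21, 7.02, 7.64 and 8.54 after saline. The Dex mice were tightly grouped and the saline mice were not. Of the 7 GTPases 3 fell, namely Igtp by 0.80 ± 0.17, Gbp3 by 0.69 ± 0.13 and Gbp2 by 0.59 ± 0.16. Gbp3 was 7.13, 6.94, 6.53, 6.97 and 6.98 after Dex and 7.69, 7.01, 7.33, 7.64 and 7.92 after saline, which overlapped at 1 mouse. Iigp1 was at −0.62 with a larger error (SE 0.22) and did not pass. Mx1, which carries an inactivating deletion in most laboratory strains, was at −0.34 and Irgm1 at −0.19, and neither passed. Mx1 averaged 3.34 over the arrays used, below the median of every array, so its value lies near the floor.

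Among the sensors Zbp1 fell by 1.11 ± 0.19 (2.16-fold) and Dhx58 by 0.58 ± 0.11, while Ddx58 (−0.25) and Ifih1 (−0.13) did not pass. Irf7 fell by 0.75 ± 0.12 (1.68-fold), whereas its partners in signalling did not pass (Irf9 −0.43 and Stat2 −0.22). Ifit1 fell by 0.55, and Ifit2 (−0.24) and Ifit3 (−0.28) did not pass. Of the 7 other effectors, Rtp4 fell by 0.72 and Bst2 by 0.69, while Rsad2 (−0.59), Cmpk2, Parp14, Xaf1 and Ifi35 did not pass. Usp18 was at −0.15 and did not pass. With 1 mouse left out at a time 12 to 18 genes were called, and Gbp2, Oasl1, Psmb9, Tap1 and Rtp4 were the genes that lost their call in at least 1 of the 19 cases. With the 3 left-out arrays kept in, 1 gene was called. Without the 11 arrays that held muscle, thymocyte or fat markers 10 genes were called and the median over the 33 genes was −0.56, with 2 mice left in the Dex group.

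**Figure D2:**
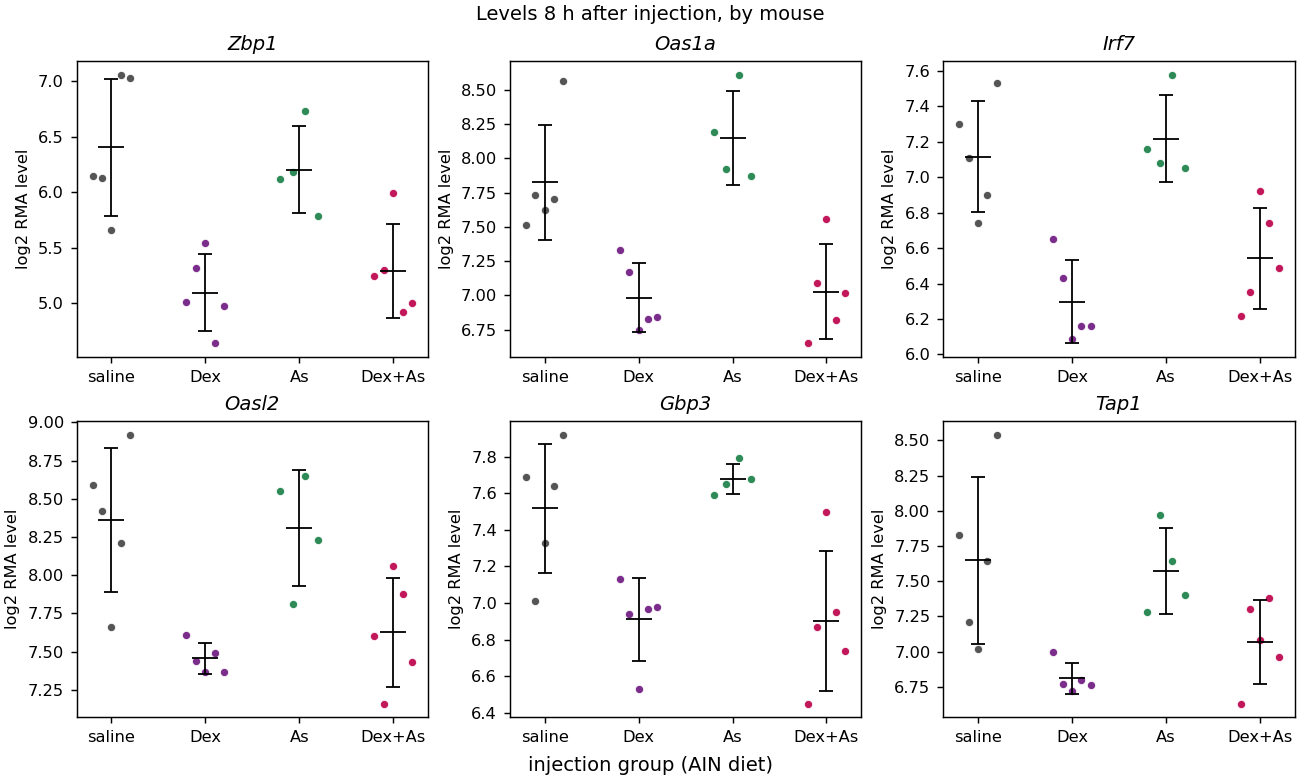
Log2 RMA levels of 6 interferon-stimulated genes by mouse (points) in the 4 injection groups, with the group mean and SD as bars. In the Dex group, Zbp1 spans 4.64 to 5.54 and Oas1a 6.75 to 7.33, below every saline mouse, while Gbp3 overlaps the saline group.

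The arrays came in 5 sets, as named by the prefix of the raw array file, and each set held mice with and without Dex. The mean over the 33 genes was lower with Dex within each of the 5 sets, by −0.30 to −1.14, and 23 of the 33 genes were lower within all 5. Each set held only 1 to 3 mice a side. The −1.14 came from a set with 1 mouse without Dex, saline injection replicate F. With the set as a block, 16 genes were called.

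Markers of blood leukocytes were also lower with Dex. Of 4 natural killer cell markers 4 fell (Gzma by 1.74, Klrd1, Prf1 and Ncr1), and their mean ranged from 4.46 to 6.03 with Dex and from 5.77 to 6.90 without. Ncr1 averaged 4.14 over the arrays used, below the median of every array, so its value lies near the floor. Of 4 monocyte markers 2 fell (Treml4 by 1.68 and Ccr2 by 1.48), with means of 5.64 to 7.04 against 6.54 to 7.88. The counts were 2 of 5 for B cells (Cd79a by 1.47 and Cd22), 3 of 5 for neutrophils (Csf3r by 1.83, S100a9 and S100a8), 1 of 7 for T cells (Cd3d by 1.31) and 2 of 7 for macrophages (Csf1r by 0.63 and Itgax). Plasmacytoid dendritic cell markers gave 0 of 5. Their mean was dim, at 5.17 with Dex and 5.30 without, and Siglech, a marker of these cells, averaged 4.38 over the arrays used. A fall in them could therefore be missed. Alveolar type II, endothelial and airway markers gave 0 calls in either direction, and 1 of 5 alveolar type I markers, Hopx, rose by 0.21. The part of these cells in the lower interferon-stimulated transcripts was not tested.

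Other genes of the pathway were read in the same contrast. Of the interferon genes with a probe set, 0 of 3 (Ifnb1, Ifng and Ifnz) passed, and 0 of 6 receptors did, with medians of −0.02 and 0.08. Of 11 genes of sensing and induction, Sting1 fell by 0.47. Of 6 negative regulators, Trim30a fell by 0.62 and Ptpn6, a phosphatase of blood cells, by 0.47. Of 11 genes of interferon-gamma chemokines and the MHC 7 fell, with Ccl5 (by 1.35), Nlrc5 (the regulator of class I genes, by 1.27) and Ciita (the regulator of class II genes, by 0.62) first. Of 36 further interferon-stimulated genes 6 fell, among them Gbp6 (by 1.29), Slfn8 (by 1.06), Slfn2 (by 1.03) and Irgm2 (by 0.69), with a median of −0.27. None of these lists had a gene called higher.

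The diets were compared over all 33 exposed and control mice (16 on LRD-5001, 17 on AIN-76A), as the mean difference over the 4 treatments. Rtp4, Oas1a, Oas2 and Usp18 were lower on LRD-5001, which is 4 of 33 genes, where 0.055% of all genes were called lower (10 genes in all). At an unadjusted p below 0.05, 13 of 33 were lower and 0 higher, where 1.78% of all genes were lower. The median over the 33 genes was −0.09, against 0.00 over all genes, so the difference was held by some of the genes.

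Rtp4, which codes for a receptor-transporting protein with antiviral activity, ran from 9.01 to 9.56 on AIN-76A (median 9.38) and from 8.78 to 9.30 on LRD-5001 (median 8.97). The ranges overlapped, while the LRD median lay below the lowest AIN mouse. The difference was −0.31 ± 0.06 (SE, adjusted p = 0.0130, limma), a 1.24-fold lower level. Oas1a ran from 7.43 to 8.16 on AIN-76A (median 7.78) and from 6.96 to 7.77 on LRD-5001 (median 7.41). Its difference was −0.40 ± 0.08 (adjusted p = 0.0135).

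Oas2 differed by −0.53 ± 0.11 (adjusted p = 0.0390), with medians of 6.24 on AIN-76A and 5.73 on LRD-5001. Usp18 differed by −0.20 ± 0.04 (adjusted p = 0.0451), with medians of 8.58 and 8.33. No gene had all LRD mice below all AIN mice (0 of 33, where 0.0% of all genes did). Irf7 (−0.43 ± 0.10, adjusted p = 0.0655) and Ifit1 (−0.37 ± 0.09, adjusted p = 0.0817) came next and did not pass.

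**Figure D3:**
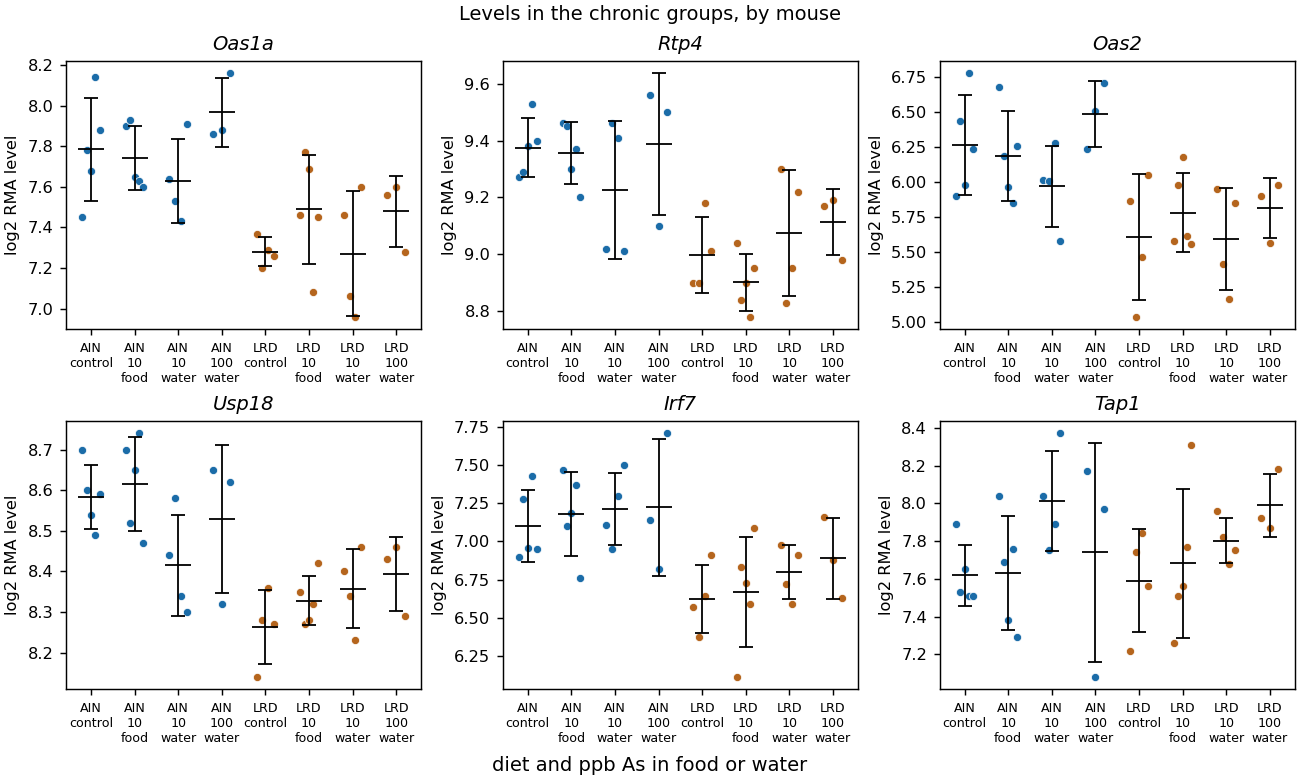
Log2 RMA levels of 6 interferon-stimulated genes by mouse (points) in the 8 exposure groups, AIN-76A to the left and LRD-5001 to the right, with the group mean and SD as bars. Oas1a, Rtp4, Oas2, Usp18 and Irf7 have all 4 LRD group means below all 4 AIN group means, and Tap1 (difference 0.02) does not.

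By role, the 5 genes of the 2-5A family were all lower on LRD-5001 (−0.23 to −0.53), and all 5 were below an unadjusted p of 0.05. The 3 antigen-processing genes lay between −0.01 and 0.06, and the 7 GTPases between −0.16 and 0.10, with 0 of 10 called. The largest positive difference was Bst2 at 0.15. Within each of the 5 array sets, with 2 to 4 mice a diet, the mean over the 33 genes was lower on LRD-5001 (−0.06 to −0.24). Rtp4 (−0.22 to −0.42), Oas1a (−0.17 to −0.57), Irf7, Oas2 and Usp18 were also lower in every set.

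Between the diet controls alone, 4 LRD mice against 5 AIN mice, 0 of 33 genes were called lower (0.0% of all genes, limma). Also 0 of 33 were called higher, where 3 of 18193 genes were. There 12 of 33 were lower at an unadjusted p below 0.05, where 2.5% of all genes were, and 32 of 33 differences were below 0. Oas1a was 7.37, 7.20, 7.29 and 7.26 in the LRD controls and 7.45, 7.78, 7.68, 8.14 and 7.88 in the AIN controls. The groups did not overlap, with a difference of −0.51 ± 0.14 (adjusted p = 0.839). Rsad2 (−0.73 ± 0.42), Oas2 (−0.66), Oasl2 (−0.63) and Oas3 (−0.60) were as large or larger without passing. Without the arrays of muscle, thymocyte or fat markers, which include 2 of the 4 LRD controls, 4 of 33 were lower at an unadjusted p below 0.05. The share of all genes in that fit is not given here, so this count cannot be set against a background.

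The diet calls changed with the arrays included. Without the arrays that held muscle or thymocyte markers, Rtp4 alone was called (1 of 33), also when arrays with fat markers were left out too, and 1 gene was called with the 3 left-out arrays kept in. With 1 mouse left out at a time 2 to 6 genes were called, with 6 without AIN 100 ppb water replicate C. Rtp4 and Oas1a kept their calls in all 33 of those cases. Neutrophil markers were lower on LRD-5001 as well, 5 of 5 at an unadjusted p below 0.05 with a median of −0.73, and of 4 monocyte markers Ccr2 fell by 0.76. Natural killer cell markers had a median difference of 0.01 and gave 0 of 4 calls. The part of these cells in the diet difference was not tested. Of the same pathway lists, 0 genes were called in any (limma), and 8 of 36 further interferon-stimulated genes were lower at an unadjusted p below 0.05.

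Drinking water or food with As for 5 weeks gave 0 calls among the 33 genes in 6 of 6 comparisons with the control of the same diet (0.0% of all genes in each, limma). On AIN-76A, the number at an unadjusted p below 0.05 was 0 for 10 ppb food, where 1.36% of all genes passed. It was 3 for 10 ppb water (11.2% of all genes) and 0 for 100 ppb water (1.77%). The 3 were Stat2, Irf9 and Parp14, all lower. Stat2, a part of the ISRE-binding complex, was 5.31 ± 0.41 (n = 4) in 10 ppb water and 6.02 ± 0.18 (n = 5) in controls, a difference of −0.72 ± 0.22 (adjusted p = 0.492). The lowest values, 4.99 each, were in replicates A and E, which held muscle or thymocyte markers, and without such arrays the difference was −0.39 ± 0.26 (adjusted p = 0.961) and 0 of 33 genes were past an unadjusted p of 0.05. The mean over the 33 genes differed little between these groups, and for 10 ppb water the median difference of −0.15 became 0.0375 without the arrays of muscle or thymocyte markers, which included 2 of the 4 mice of that group. The next largest differences on 10 ppb water were Tap1 at 0.39, Oas3 at −0.32, Oas2 at −0.30 and Oasl2 at −0.28.

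On 100 ppb water Oas3 was at 0.61 ± 0.36 and Ifit1 at 0.35 ± 0.17. Zbp1 (0.26), Bst2 (−0.24) and Oas2 (0.22) followed, none past the test. On 10 ppb food the largest were Oasl1 (−0.24), Rsad2 (−0.20), Stat2 (0.19), Irgm1 (0.17) and Iigp1 (−0.15). A test over 0, 10 and 100 ppb in water together on AIN-76A gave 0 genes among the 33 (0 of 45037 probe sets, limma F test, with 1 of 33 genes at an unadjusted p below 0.05, where 5.96% of all probe sets were).

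On LRD-5001, 0 genes for 10 ppb food (2.79% of all genes), 1 for 10 ppb water (3.55%) and 1 for 100 ppb water (4.37%) were past an unadjusted p of 0.05. These were Ddx58 at 0.23 and Dhx58 at 0.46 ± 0.17. The differences leaned upward, with medians of 0.05, 0.16 and 0.16, and 29 of 33 were above 0 for 100 ppb water. Dhx58, a regulator of the RNA sensors, was 5.96 ± 0.09 (n = 4) in LRD controls, 6.26 ± 0.28 (n = 5) in 10 ppb food, 6.29 ± 0.29 (n = 4) in 10 ppb water and 6.41 ± 0.22 (n = 3) in 100 ppb water. The adjusted p was 1.00 in each case to 2 decimals. Rsad2 was at 0.28, 0.31 and 0.48 in the same order. The 3 comparisons share the LRD controls.

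The difference between the diets in the response to As gave 0 calls in 3 of 3 interactions (0.0% of all genes in each, limma). For 10 ppb water 7 of 33 genes were past an unadjusted p of 0.05 (Stat2, Oasl2, Ifih1, Irf9, Parp14, Ddx58 and Usp18), all in the direction of a higher response on LRD-5001, where 8.2% of all genes were past it in that direction. This interaction includes the AIN 10 ppb water mice, and without the arrays of muscle or thymocyte markers 0 of 33 were past it.

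Injected As also gave 0 calls against saline (0.0% of all genes), and 3 genes past an unadjusted p of 0.05, where 8.39% of all genes passed. Ifit3 was 9.48 ± 0.12 (n = 4) after As and 8.94 ± 0.29 (n = 5) after saline (difference 0.54 ± 0.20, adjusted p = 0.655). Bst2 was 9.34 ± 0.03 against 8.88 ± 0.19 (difference 0.46 ± 0.22, adjusted p = 0.736), and Ddx58 was the remaining gene. Bst2 was 9.36, 9.36, 9.30 and 9.34 in the As mice and 8.90, 8.73, 8.68, 8.92 and 9.15 in the saline mice, without overlap. Rsad2 (0.42), Rtp4 (0.32) and Oas1a (0.32) followed.

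As added to Dex gave 0 calls and 0 genes past an unadjusted p of 0.05 (0.0% and 2.42% of all genes), with Stat2 at 0.28, Tap1 at 0.26 and Irf7 at 0.24. The interaction of Dex with As also gave 0 and 0 (0.0% and 4.42% of all genes), with Ifit3 furthest at −0.56 ± 0.27. Saline injection against uninjected AIN controls gave 0 calls (0.0055% of all genes) and 1 gene, Ddx58, past an unadjusted p of 0.05 (5.19% of all genes). There Bst2 was at −0.38, Oas3 at 0.37, Iigp1 at −0.36, Ifit2 at −0.34 and Gbp3 at −0.29, none past the test.

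**Figure D4:**
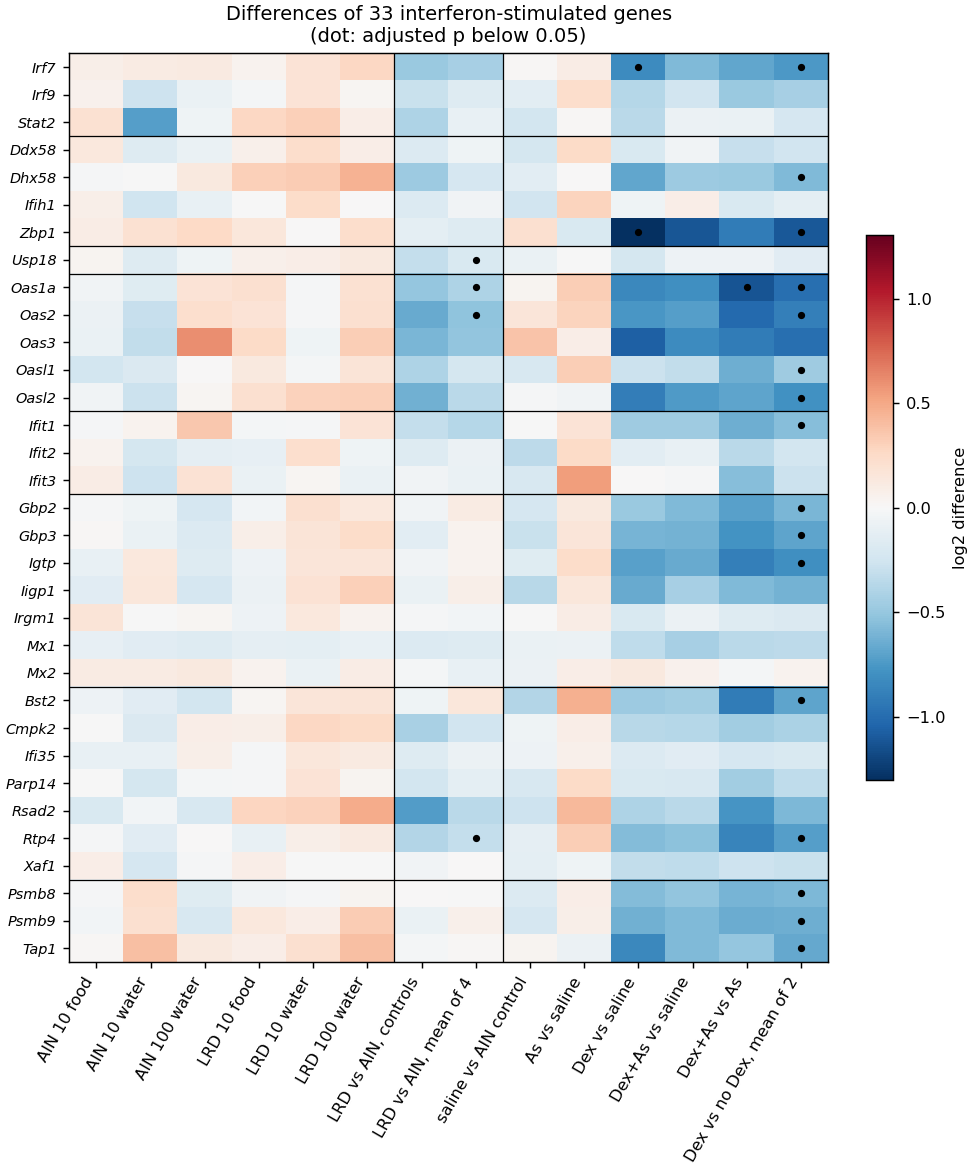
Log2 differences of the 33 interferon-stimulated genes (rows, in blocks by role) in 14 comparisons (columns; the first 6 set As in food or water against the control of the same diet), blue for lower and red for higher, with a dot where the adjusted p was below 0.05. Dots stand in the diet mean (4 genes) and the Dex columns (2, 0, 1 and 16 genes), and none stand in the As columns.

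The diet and Dex differences come from separate mice and can be set side by side. Of the 33 genes, 25 were lower with diet and 32 with Dex. The 24 genes lower in both were largely fixed by these counts and say little on agreement. Across the genes, which are not independent replicates, Pearson's r was 0.36 and Spearman's rho 0.23. The 2-5A family, Irf7, Rtp4 and Ifit1 were on the low side of both, at −0.23 to −0.53 with diet and −0.46 to −0.98 with Dex. Tap1, Psmb8, Psmb9, Gbp2, Gbp3, Igtp and Bst2 were lower with Dex (−0.58 to −0.80) and at −0.01 to 0.15 with diet. Usp18 was called with diet and not with Dex (−0.15 ± 0.10). Whether a gene's diet difference and Dex difference differed from each other was not tested.

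**Figure D5:**
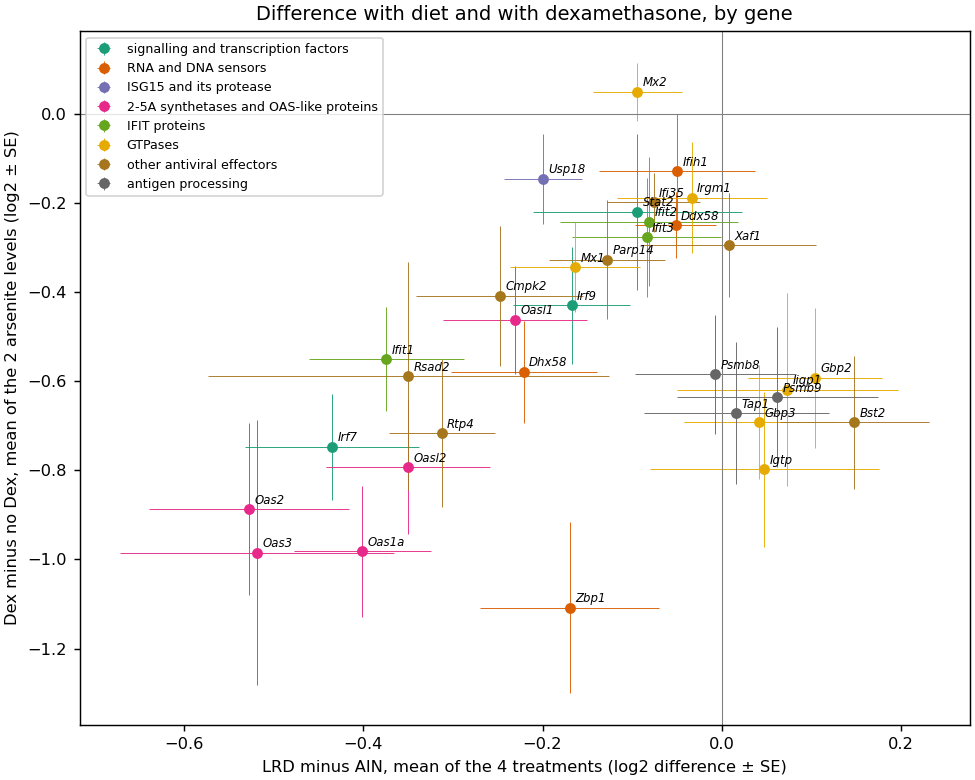
Each point is 1 of the 33 genes, coloured by role, with the LRD minus AIN difference on the horizontal axis and the mean Dex difference on the vertical axis, both on the log2 scale with SE as bars. The 2-5A family lies at the lower left (Oas1a at −0.40 and −0.98), and antigen-processing genes and some GTPases lie below 0 on the vertical axis only (Igtp at 0.05 and −0.80).

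Among mice of the same group the genes varied together to different degrees. Over the 52 arrays, as deviations from group means, each gene's correlation with the mean of the others ran from −0.05 for Mx2 and 0.11 for Oas3 to 0.76 for Gbp2 and 0.82 for Rtp4. Pairs of genes of 1 role had a median r of 0.44 (67 pairs) and other pairs 0.31 (461 pairs). The mean over the genes had r = 0.68 with the natural killer cell marker mean, 0.68 with that of monocytes and 0.55 with that of macrophages. It had −0.04 with neutrophil markers and −0.12 with plasmacytoid dendritic cell markers. All these points share their arrays, and the correlations are given as descriptions. Where a gene had more than 1 probe set (14 of 33 genes), the 20 other probe sets gave 0 calls in the opposite direction, and 10 of the 20 averaged below log2 5.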

How the data were processed

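Total RNA of 55 mouse lungs was hybridised to Affymetrix whole-genome mouse arrays, 1 per mouse. The authors deposited log2 expression values made with RMA (version not given in the sources used here), with no filter or pooling stated, and these log2 values were used as deposited; depth does not apply to arrays, and the number of mice limits the precision. Groups were taken from the labels. The annotation paired 34945 probe sets with 1 symbol, 932 with several and 9160 with none, and 64 control probe sets were left out.

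Differences were tested with limma 3.58.1 in R 4.3.3 (lmFit and eBayes), in separate fits for AIN-76A exposure, LRD-5001 exposure, both diets, the injections, and saline with AIN controls. P-values were adjusted by the Benjamini-Hochberg method over all 45037 probe sets, and a gene was called at an adjusted p below 0.05. The rank product test named in the methods was not run, and 1 list of pathway genes is not reported here. The limma fits were tested on simulated data. Errors are SE for differences and SD for groups. Replicates were labelled as biological.

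Members and lists were chosen with earlier results of these data known. Named genes were the members called in a comparison and, where fewer than 5 were, those of largest difference up to 5, with up to 4 called genes from each other list. Genes outside this rule, named with their values, were chosen after the values were seen, as were the contrast averaging Dex over both arsenite levels and the alternative without arrays that held muscle or thymocyte markers (mean above 7.5), with or without arrays that held fat markers. The other alternatives were 1 fit over 52 arrays, keeping the 3 arrays left out, blocks for array set or replicate letter, a filter (above log2 5 in at least 4 arrays), array weights, renewed quantile normalization, the mean of all probe sets of a gene, and leaving out each mouse. Figures were drawn with Python 3.11.15 and matplotlib 3.10.9.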

Additional observations from a re-analysis of the deposited data

Results flagged for a closer look

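The following mice stood apart from the others of their group, with a gap to the nearest mouse that was large against the range of the group (Dixon's criterion). Of 340 sets of values tested, 16 met it, and chance alone gives about 1 in 20. The mean over the 33 genes was highest in LRD control replicate E, at 7.70 against 7.47 to 7.49 in the other mice. Irf9 was lowest in saline injection replicate D, at 7.17 against 7.67 to 7.87 in the other mice. Stat2 was lowest in AIN control replicate A, at 5.71 against 6.06 to 6.18 in the other mice. Oas1a was highest in saline injection replicate F, at 8.56 against 7.51 to 7.73 in the other mice. Oas3 was highest in Dex and As injection replicate A, at 5.18 against 3.92 to 4.16 in the other mice. Oasl1 was lowest in LRD 10 ppb food replicate B, at 4.88 against 5.14 to 5.25 in the other mice. Ifit1 was lowest in AIN 10 ppb food replicate F, at 7.92 against 8.44 to 8.63 in the other mice. Ifit2 was lowest in LRD 10 ppb food replicate D, at 6.92 against 7.65 to 7.74 in the other mice. Ifit2 was lowest in Dex injection replicate C, at 6.73 against 7.40 to 7.59 in the other mice. Iigp1 was lowest in As injection replicate A, at 8.48 against 8.95 to 8.99 in the other mice. Igtp was lowest in LRD 10 ppb water replicate B, at 8.37 against 8.83 to 8.89 in the other mice. Cmpk2 was lowest in Dex and As injection replicate A, at 6.14 against 7.37 to 7.62 in the other mice. Bst2 was lowest in Dex injection replicate C, at 7.90 against 8.43 to 8.60 in the other mice. Ifi35 was lowest in AIN control replicate C, at 10.76 against 11.02 to 11.10 in the other mice. Xaf1 was lowest in LRD control replicate A, at 8.74 against 9.25 to 9.27 in the other mice. Tap1 was highest in Dex injection replicate A, at 7.00 against 6.72 to 6.80 in the other mice. No difference between groups in the response to a treatment passed a test of that difference.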

How the results depend on the processing

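Counts are genes of the 33 called lower, and medians are log2 differences over the 33 genes. For LRD-5001 against AIN-76A (4 genes) the count was 1 in the fit over 52 arrays, 1 with the 3 left-out arrays kept, 2 after quantile normalization, 0 with the replicate block and 1 without arrays of other-tissue markers. For Dex against saline (2 genes) these settings gave 6, 0, 4, 0 and 1, the array-set block gave 1, the filter 5, array weights 8 and the mean of probe sets 1. For Dex with As against As (1 gene) the counts were 10, 0, 3 and 0 in the first 4 of these settings, 2 with the array-set block, 3 with the filter and 5 with weights. For Dex with As against saline (0 genes) they were 4 in the fit over 52 arrays, 1 with the array-set block, 2 with the filter, 4 with weights and 1 for the mean of probe sets. For Dex averaged over both As levels (16 genes) it was 1 with the left-out arrays kept, where the median was −0.25, and 9 with the replicate block. Without arrays of fat markers too, it was 10, against 1 for Dex and 1 for diet. Keeping those arrays, 1 of which had r = 0.265 with its group, also moved medians to −0.46 for AIN 100 ppb water, 0.036 for LRD 10 ppb water, −0.31 for injected As, −0.05 for Dex with As against As and 0.38 for the interaction. Without other-tissue arrays, fat included or not, the median for AIN 10 ppb water was 0.0375. The causes were not tested.

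Leaving out 1 mouse gave 2 to 6 genes for diet, 0 to 5 for Dex, 0 to 5 for Dex with As against As, 0 to 4 for Dex with As against saline and 12 to 18 for the averaged Dex contrast. The diet count was 2 without AIN control C or F, LRD control C, AIN food B, AIN 10 ppb water A, AIN 100 ppb water D, LRD food B or E, LRD 10 ppb water B or D, or LRD 100 ppb water D or F, and 6 without AIN 100 ppb water C. For Dex it was 1 without saline B or E or Dex C and 5 without saline D. For Dex with As against As it was 3 without As B, 2 without Dex and As A, and 5 without Dex and As D. For Dex with As against saline it was 2 without saline D and 4 without Dex and As D. The median for AIN 100 ppb water ran from −0.091 to 0.126, the latter without replicate C. Replicate letters did not pair mice: the median correlation of deviations of same-letter arrays was 0.01 on AIN-76A, −0.04 on LRD-5001 and −0.05 after injection, and 3 of 17, 1 of 16 and 1 of 19 arrays correlated best with their own letter. The replicate block moved no other count by over 1.5 times, and no sign of a called gene was reversed.

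With 3 to 5 mice a group, differences of single genes as large as −1.11 (Zbp1, Dex with As against saline) did not pass the test.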
